A study of Mus musculus with 18 samples.

Results

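Eosinophils cultured with Escherichia coli and apoptotic cells (E. coli + ACs, 3 libraries) were compared with eosinophils cultured with apoptotic cells alone (ACs, 3 libraries). The comparison was made over the genes with a mean of at least 10 normalized counts in these 6 libraries. These were 10235 of the 54446 genes in the deposited table, and the series holds 18 libraries. It asks which transcripts of eosinophils that already face apoptotic cells are changed by a bacterial stimulus. Wild-type thymocytes treated with dexamethasone served as apoptotic cells, and they were present in both groups. The eosinophils came from the peritoneal cavity of mice that carry an Il5 transgene (NJ.1638, Il5Tg), which raises eosinophil numbers, and the labels give the strain as C57BL/6. They were enriched by removal of cells with anti-Thy1.2 and anti-B220 beads, and after the culture they were taken back with anti-Siglec-F beads. How the bacteria were prepared and dosed is not given in the sources used here, and the age of these mice is not given either. The study describes its replicates as biological, and the labels tie no library to a mouse, so the p-values measure the spread between these libraries. The same experiment held 6 further libraries in which interferon-gamma (IFN-γ) was present, with apoptotic cells alone (IFN-γ + ACs, 3 libraries) or with E. coli and apoptotic cells (IFN-γ + E. coli + ACs, 3 libraries). They share no library with the main comparison and give the E. coli effect a separate measurement under IFN-γ.

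Eosinophils are granulocytes known best for allergy and parasite infection, and they also carry receptors for bacterial products. Gram-negative bacteria such as E. coli shed lipopolysaccharide, which is sensed by the receptor TLR4 with CD14 and MD-2. The adaptors MyD88 and TRIF then pass the signal to NF-κB, to MAP kinases and to interferon regulatory factors, which switch on cytokines, chemokines, antimicrobial proteins and their own inhibitors. Apoptotic cells are known to dampen such responses in macrophages, in which receptors for phosphatidylserine and bridging proteins drive their uptake (efferocytosis).

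Transcripts were counted by CEL-Seq2, a method that tags the 3′ end of polyadenylated RNA. The libraries held 4234312 to 4844424 reads on genes with ACs and 4759815 to 5078760 with E. coli + ACs, and 1 read was worth between 0.81 and 0.94 normalized counts. The leading principal component of the 6 libraries took 57.2% of the variance and separated the groups. The eosinophil label was checked on 8 defining markers. Siglecf was at 3169, 3175 and 3367 normalized counts with ACs and 2508, 2595 and 2817 with E. coli + ACs, and Ccr3 was at 3211, 3228 and 3385 with ACs against 3939, 4481 and 4342 with E. coli. The granule gene Prg2 was at 90.3, 81.7 and 75.8 with ACs against 132, 117 and 117 with E. coli. The eosinophil peroxidase gene Epx was at 0.81, 0.94 and 0.82 with ACs against 1.67, 3.27 and 1.76 with E. coli, near the worth of 1 to 4 reads a library, so this granule gene was all but absent. Ear1 was also under the mean required, at 16.3, 4.69 and 5.71 with ACs against 11.7, 2.45 and 5.28 with E. coli. Markers of large peritoneal macrophages were present as well: the sum over 23 of them was 37350 to 47101 normalized counts with ACs and 31254 to 35987 with E. coli + ACs. Summed markers of thymocytes, the source of the apoptotic cells, were at 559.5 to 693.2 with ACs and 861.7 to 896.6 with E. coli + ACs. The ribonuclease gene Ear2 was at 32.5, 25.3 and 21.2 with ACs against 15.1, 11.4 and 7.04 with E. coli and did not pass the test, and Il5ra and Ear6 are described with the lineage genes. In such bulk RNA, fewer cells of a type and less RNA per cell cannot be told apart.

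E. coli changed 1038 of the 10235 genes (10.1%) at an adjusted p under 0.05 and at least 1.5-fold in limma's moderated test on log2(normalized count + 1). In this fit 502 genes rose (4.9% of those tested) and 536 fell (5.24%). The 2 groups of 3 libraries were without overlap for 1027 of the 1038 and for 38.6% of all genes tested. The median log2 fold change over all tested genes was -0.01. Values in parentheses after a gene are log2 fold changes, with the SE after the ± sign where it is given. A change of at least 4-fold was seen for 64 of the genes that rose and 58 of those that fell. The typical rise was 1.0 on the log2 scale, and the typical fall was -1.1. The median SD of the log2 values between libraries of a group was 0.186 with ACs and 0.192 with E. coli + ACs. Genes with more counts passed the threshold more often, from 5.74% of those with a mean under 35.0 normalized counts to 13.2% of those with a mean of at least 263, and among the latter 207 genes rose and 132 fell. The split between rises and falls moved with the setting. Without ACs replicate 3, 416 genes rose and 357 fell. In a fit of the 6 libraries alone 617 rose and 936 fell, and by edgeR 544 rose and 717 fell.

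**Figure D1:**
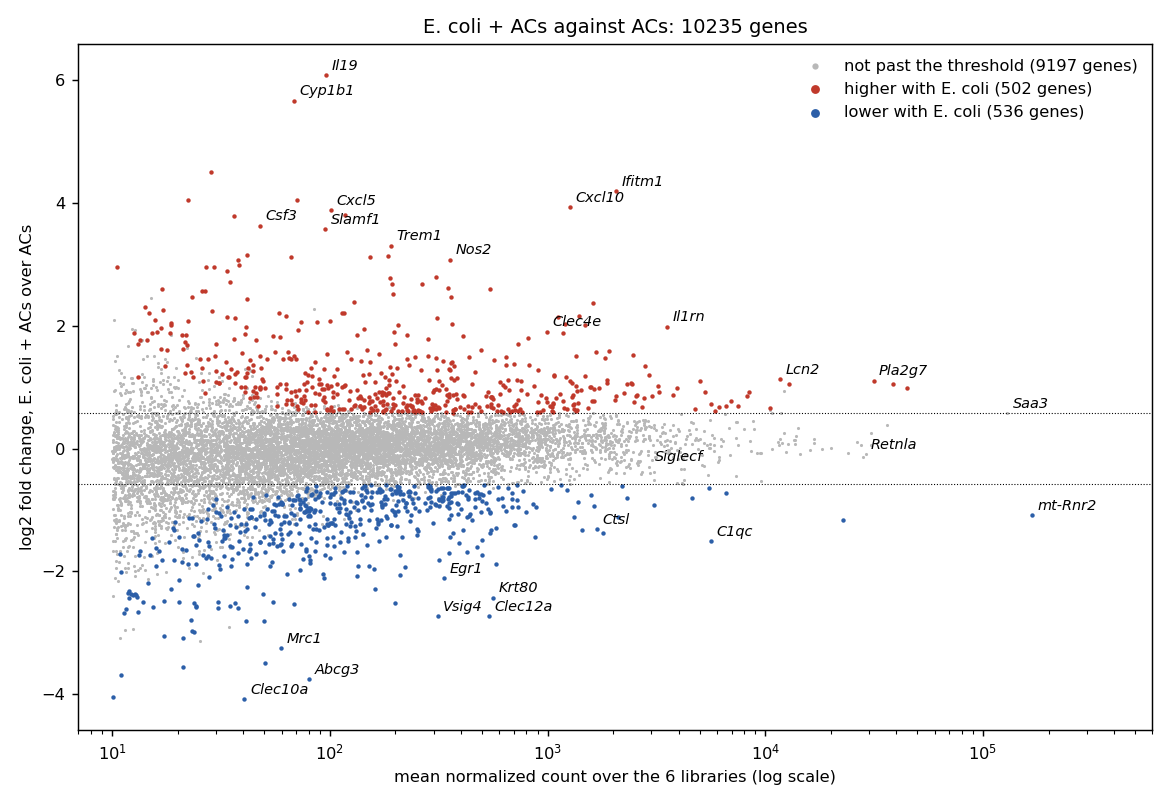
Each point is 1 of the 10235 tested genes, with its mean normalized count over the 6 libraries on a log axis and its log2 fold change (E. coli + ACs over ACs) on the vertical axis. Genes past the threshold are coloured (502 higher, 536 lower), the dotted lines mark 1.5-fold, and the most extreme named points are Il19 at 6.07 and Clec10a at -4.07.

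Il19, which encodes a cytokine of the IL-10 family, had the largest rise among genes with at least 50 normalized counts in the higher group. It was at 0.81, 0.94 and 4.89 normalized counts with ACs and 223, 124 and 224 with E. coli + ACs. The log2 fold change was 6.07 ± 0.54 (SE; adjusted p = 2.81e-07, limma). All 3 E. coli libraries lay far above all 3 ACs libraries. The ACs side rests on 1, 1 and 6 reads, and the ratio of the summed reads was 83.3 with a 95% counting interval of 42.1 to 194.0. Cyp1b1, a cytochrome P450 that the aryl hydrocarbon receptor induces, had 5.69, 1.88 and 0 normalized counts with ACs and 143, 134 and 126 with E. coli + ACs (5.66 ± 0.55, adjusted p = 8.01e-07, limma). Its ACs side held 7, 2 and 0 reads, for a ratio of 52.6 (27.5 to 116). Tpbpa, known as a placental gene, was at 2.44, 0 and 3.26 with ACs against 69.5, 43.3 and 52.8 with E. coli, and its ratio was 27.7 (13.2 to 69.9). Leaving out single ACs libraries moved the log2 fold change of Cyp1b1 to 6.32 (replicate 1) or 4.94 (replicate 3) and that of Tpbpa to 3.85 (replicate 2). For these 3 genes the direction was clear and the size of the change was not well set, since the lower group was within a few reads of 0.

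Among genes with many reads on both sides, Ifitm1 rose the most. This interferon-induced membrane protein restricts virus entry, and its transcript was at 201, 272 and 179 normalized counts with ACs and 3619, 4435 and 3709 with E. coli + ACs, with a log2 fold change of 4.18 ± 0.14 (adjusted p = 5.70e-13, limma). The lowest E. coli library was far above the highest ACs library. Cxcl10, a ligand of the receptor CXCR3 that draws T cells, was at 207, 133 and 134 with ACs against 2707, 2166 and 2222 with E. coli (3.92 ± 0.17, adjusted p = 3.75e-11, limma). Nos2, the inducible nitric oxide synthase, was at 73.2, 99.5 and 57.1 with ACs against 671, 565 and 680.0 with E. coli (3.07 ± 0.17, adjusted p = 1.38e-09, limma). Trem1, a receptor that amplifies Toll-like receptor signals, was at 31.7, 31.0 and 40.8 with ACs against 337, 361 and 340.4 with E. coli (3.30 ± 0.19). The groups did not overlap for these genes, which the choice of the 20 largest rises required. The other genes among the 20 largest rises were Syt7 (a calcium sensor of membrane fusion, 4.05), Cxcl5 (3.88), U90926 (3.79), Cxcl11 (annotated as a polymorphic pseudogene, 3.78), Csf3 (3.62), Slamf1 (a receptor of the SLAM family, 3.57), Flrt3 (3.14), Procr (the protein C receptor, 3.12), Il10 (3.12), Ch25h (cholesterol 25-hydroxylase, 3.12), Il1b (3.06), Lama5 (a laminin chain, 2.99) and Edn1 (endothelin-1, 2.95), all log2 fold changes with an adjusted p under the threshold in limma.

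**Figure D2:**
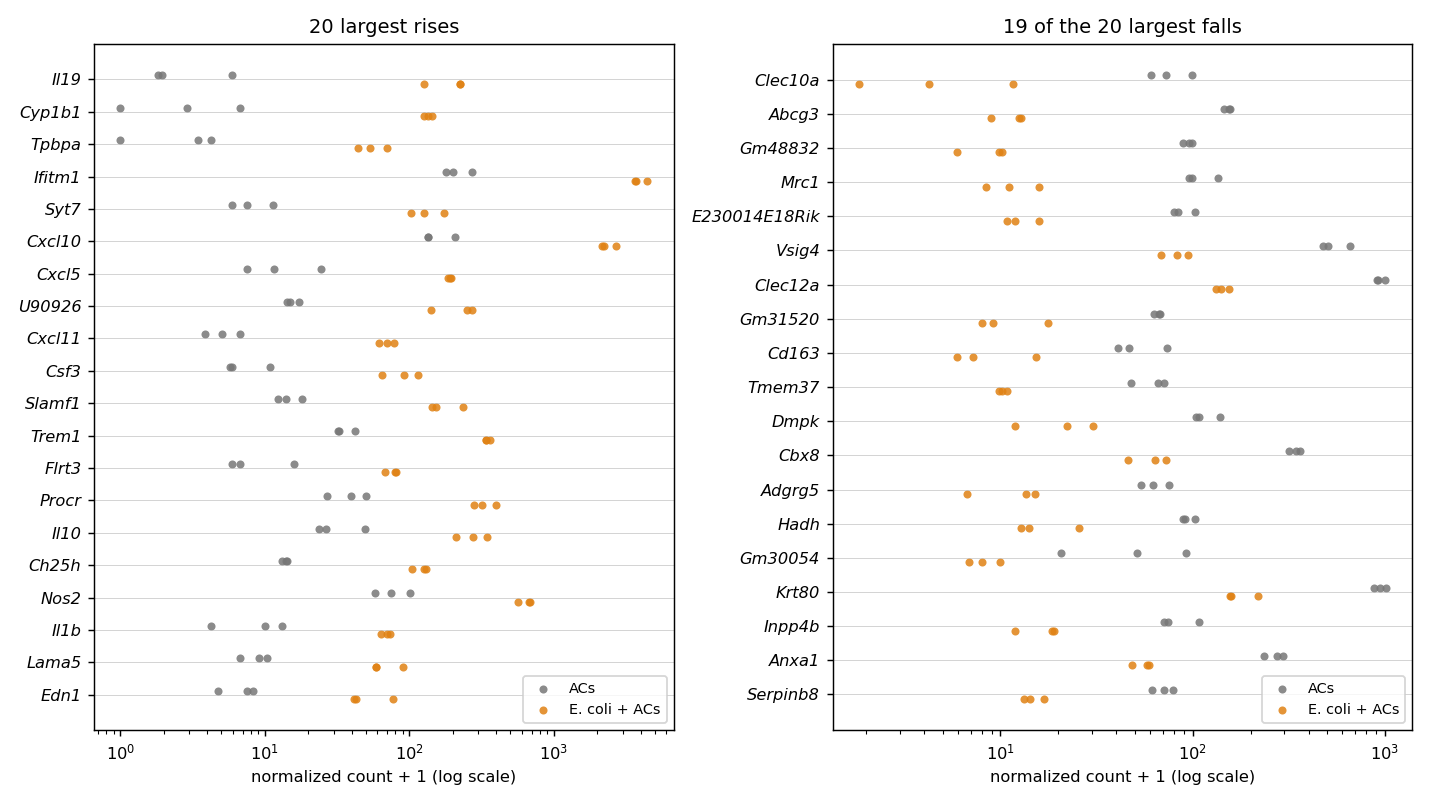
Normalized count + 1 on a log axis for the 20 largest rises (left) and 19 of the 20 largest falls (right), with 1 point for each of the 3 ACs libraries (grey) and the 3 E. coli + ACs libraries (orange). The groups do not overlap for any of these genes, which the choice of genes required.

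The 250 bases before the start site of 4 risen genes, Cxcl1 and 3 of the 20 largest rises, are shown because they carry letters of the sites that factors downstream of TLR4, of interferon or of the aryl hydrocarbon receptor are known to bind. The sequences are from RefSeq (GRCm38.p6), 5′ to 3′ on the strand of the gene, and capitals mark matches on either strand to the NF-κB consensus, to the interferon-stimulated response element (GAAANNGAAA), to the AP-1 site (TGANTCA), to the STAT site (TTCNNNGAA), to the xenobiotic response element (GCGTG) or to the antioxidant response element (TGACNNNGC). An AP-1 and an antioxidant match can share bases, as they do in Cxcl10.
Il19, chr1:130940116-130940365, minus strand: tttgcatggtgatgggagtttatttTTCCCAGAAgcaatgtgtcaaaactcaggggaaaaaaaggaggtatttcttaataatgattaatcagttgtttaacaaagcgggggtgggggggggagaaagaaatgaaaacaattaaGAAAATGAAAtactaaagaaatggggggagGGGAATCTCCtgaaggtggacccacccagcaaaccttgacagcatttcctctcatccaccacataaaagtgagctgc
Cxcl10, chr5:92348890-92349139, minus strand: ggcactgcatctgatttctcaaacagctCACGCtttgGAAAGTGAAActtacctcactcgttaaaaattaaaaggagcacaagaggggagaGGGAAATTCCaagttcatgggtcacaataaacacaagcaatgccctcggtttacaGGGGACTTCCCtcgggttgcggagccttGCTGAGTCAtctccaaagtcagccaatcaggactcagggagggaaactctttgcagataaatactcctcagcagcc
Cxcl1, chr5:90890995-90891244, plus strand: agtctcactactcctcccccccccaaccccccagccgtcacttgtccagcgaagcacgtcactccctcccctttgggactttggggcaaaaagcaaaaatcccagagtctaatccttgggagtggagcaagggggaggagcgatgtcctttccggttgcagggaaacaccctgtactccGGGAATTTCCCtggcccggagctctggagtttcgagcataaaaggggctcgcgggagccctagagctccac
Cyp1b1, chr17:79715062-79715311, minus strand: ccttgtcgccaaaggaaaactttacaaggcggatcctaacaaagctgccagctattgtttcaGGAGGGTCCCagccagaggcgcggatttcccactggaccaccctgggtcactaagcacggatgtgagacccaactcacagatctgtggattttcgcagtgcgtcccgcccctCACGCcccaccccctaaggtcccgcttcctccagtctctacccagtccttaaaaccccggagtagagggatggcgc
The Il19 window held an NF-κB match that began 77 bases before the start, a response element for interferon at 107 bases and a STAT match at 225 bases. In Cxcl10, NF-κB matches began at 159, 104 and 103 bases, the last pair being 2 readings of overlapping letters, and an interferon response element began at 213 bases. The Cxcl1 window held overlapping NF-κB matches at 71 and 70 bases, and Cyp1b1 held an NF-κB match at 188 bases and a xenobiotic match at 76 bases. Over all genes, an NF-κB match was in the window of 15.1% of the 391 genes that rose and had a window, 11.1% of 398 that fell, 10.5% of 7870 tested genes and 8.23% of the 27025 genes in the RefSeq table. An AP-1 match was in 10.2% of those that rose, 7.04% of those that fell and 5.55% of those tested (7.82% of all genes with a window). The shares for the interferon element were 4.35%, 4.52% and 3.68% (3.46% of all), those for the STAT site 8.18%, 6.78% and 7.0% (8.13%), those for the xenobiotic element 47.8%, 42.7% and 50.4% (30.9%) and those for the antioxidant element 15.1%, 15.6% and 14.2% (11.5%). The 4 were picked for their matches among 18 genes whose windows were read. Of these, 8 had no match to any of the 6 motifs, among them Ifitm1, Il1b, Tnf and Acod1, which also rose. A match is a run of letters and not a site shown to be bound.

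Cytokine genes were called higher far more often than lower. Of 26 tested members, 13 rose and 1 fell, with a median log2 fold change of 0.83, against 4.9% and 5.24% of all tested genes and a median of -0.01. The risen members included counter-regulatory cytokines. Il10 was at 48.0, 22.5 and 25.3 normalized counts with ACs and 273, 209 and 343 with E. coli + ACs (3.12 ± 0.28, adjusted p = 3.03e-07, limma). Il1rn, the natural antagonist of the IL-1 receptor, was at 1592, 1396 and 1313 with ACs against 5989.8, 5195 and 5804 with E. coli (1.98 ± 0.12, adjusted p = 1.78e-09, limma). Both had no overlap between the groups, and Il1rn was the more abundant. The pro-inflammatory members Tnf, Il1b and Il1a rose from low levels, as Il10 did. Tnf was at 7.32, 11.3 and 9.79 with ACs against 46.9, 47.4 and 49.3 with E. coli (2.24 ± 0.35), Il1b was at 3.25, 12.2 and 8.97 with ACs against 72.8, 62.1 and 68.6 with E. coli (3.06 ± 0.41), and Il1a was at 56.1, 25.3 and 36.7 with ACs against 149, 164 and 168 with E. coli (2.07 ± 0.27). The adjusted p-values in limma were 0.000206, 3.78e-05 and 2.33e-05. Csf3, the granulocyte colony-stimulating factor, was at 4.88, 4.69 and 9.79 with ACs against 90.4, 63.8 and 113 with E. coli (3.62 ± 0.42, adjusted p = 7.03e-06, limma). Inhba, a subunit of activin A, rose by 2.71 on the log2 scale, and Il27 and Ebi3, whose products pair as IL-27, rose by 1.44 and 1.36. Il5 itself, which the host mice carry as a transgene, was at 401, 386 and 421 with ACs against 659, 723 and 579.7 with E. coli (0.69 ± 0.13). Il12b, Il23a, Csf2 and Lif had means under 10 and were not tested. The member that fell was Il16 (-0.63), and Tnfsf12 (-1.14), Il4 (0.11) and Osm (-0.12) did not pass.

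Chemokine genes showed the same bias, with 10 of 25 tested members higher and 1 lower (median log2 fold change 0.36). The ligands of the neutrophil receptor CXCR2 stood out. Cxcl1 was at 68.3, 81.7 and 63.6 normalized counts with ACs and 479.7, 402 and 493 with E. coli + ACs (2.67 ± 0.16, adjusted p = 1.60e-09, limma). Cxcl5 was at 23.6, 6.57 and 10.6 with ACs against 190.0, 195 and 184 with E. coli (3.88 ± 0.35), and Cxcl3 was at 88.6, 127 and 83.2 with ACs against 625, 585 and 595 with E. coli (2.61 ± 0.21). Cxcl2 rose less, from 649, 675 and 625 to 1602, 1467 and 1393 (1.19 ± 0.12). In each of these 4 the lowest E. coli library was above the highest ACs library. Cxcl3, Cxcl1 and Cxcl2 lie together on chromosome 5 (GRCm38, 90786103 to 90905938), with no other tested gene between them, and Il19, Il10 and Mapkapk2 form a similar run of 3 risen neighbours on chromosome 1 (130932656 to 131097826). The macrophage inflammatory protein genes Ccl4 and Ccl3 rose by 2.60 and 1.85 on the log2 scale, and Ccl5 by 1.01. Ccl5 was abundant in both groups, at 2413, 2156 and 1782 with ACs against 4897, 3440.2 and 4513 with E. coli. Ccl12 fell (-1.19), a call lost without ACs replicate 1, ACs replicate 3 or E. coli + ACs replicate 3 (-1.12 to -0.96, adjusted p up to 0.0904, limma). The abundant members Ccl6 (0.33), Ccl9 (-0.11), Cxcl13 (-0.06) and Ccl2 (0.29) did not pass the threshold.

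Receptors for chemoattractants leaned the same way, with 7 of 20 tested members higher and 1 lower (median 0.39). Cxcr2, the receptor of the CXCL chemokines above, was at 43.9, 41.3 and 71.0 normalized counts with ACs and 364, 367 and 266 with E. coli + ACs (2.68 ± 0.26, adjusted p = 9.16e-07, limma). Fpr1, a receptor of bacterial formyl peptides, was at 716, 498 and 380.1 with ACs against 3094, 2123 and 2854 with E. coli (2.37 ± 0.20, adjusted p = 1.26e-07, limma), and Fpr2 rose by 0.88. Both Cxcr2 and Fpr1 were higher in every E. coli library than in any ACs library. Ccrl2 (1.46), the platelet-activating factor receptor Ptafr (1.19), the leukotriene B4 receptor Ltb4r1 (0.87) and S1pr1 (0.83) also rose. The eotaxin receptor Ccr3 (0.38) and Cxcr4 (0.02) did not reach 1.5-fold.

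In the TLR4 pathway, the receptor gene itself did not pass the test. Tlr4 was at 55.3, 68.5 and 56.3 with ACs against 41.9, 57.2 and 45.7 with E. coli (-0.31 ± 0.25, adjusted p = 0.487, limma), and its groups overlapped. Of 28 tested members of the recognition and signalling list, 4 rose (14.3%) and 3 fell (10.7%), with a median log2 fold change of 0.05. The shares over all tested genes were 4.9% and 5.24%. The co-receptor Cd14 rose by 0.92, and the kinases Irak2 and Irak3 rose by 1.38 and 1.61. Irak3, also called IRAK-M, is known as a brake on the pathway, and it was at 251, 212 and 273 with ACs against 787, 759 and 696 with E. coli. Tlr2 rose by 0.91, and its call was lost when any of ACs replicate 2, ACs replicate 3 or the E. coli + ACs replicates was left out (0.74 to 0.96, adjusted p up to 0.175, limma). The members that fell were Cd180 (-1.63) and Ly86 (-1.34), which form a receptor complex related to TLR4, and the lipopolysaccharide-binding protein gene Lbp (-1.42). Myd88 (0.36), Ly96, which encodes MD-2 (0.23), and Ticam1, which encodes TRIF (-0.01), did not pass.

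NF-κB genes rose without exception among those that passed: 9 of 23 tested members were higher and 0 lower (median 0.54). They were mostly subunits of the noncanonical arm, inhibitors and adaptors. Traf1 was at 27.6, 13.1 and 29.4 normalized counts with ACs and 109.7, 94.8 and 102 with E. coli + ACs (2.16 ± 0.28, adjusted p = 2.50e-05, limma). Bcl3, a nuclear IκB-like protein, was at 30.9, 34.7 and 33.4 with ACs against 144, 144 and 135 with E. coli (2.06 ± 0.18), and Nfkbiz, another, rose by 1.56. The p100 subunit gene Nfkb2 rose by 1.49, while the p105 and p65 genes Nfkb1 (-0.20) and Rela (0.44) did not pass. Nfkbid (1.30), Tnip1 (1.09), Nfkbib (0.95), Tnfaip2 (0.89) and the deubiquitinase A20 gene Tnfaip3 (0.77) were the other members that rose. Nfkbia, abundant in both groups, was at 3506, 3559 and 3478 with ACs against 4341, 3877 and 3949.6 with E. coli (0.21), apart but short of 1.5-fold.

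**Figure D3:**
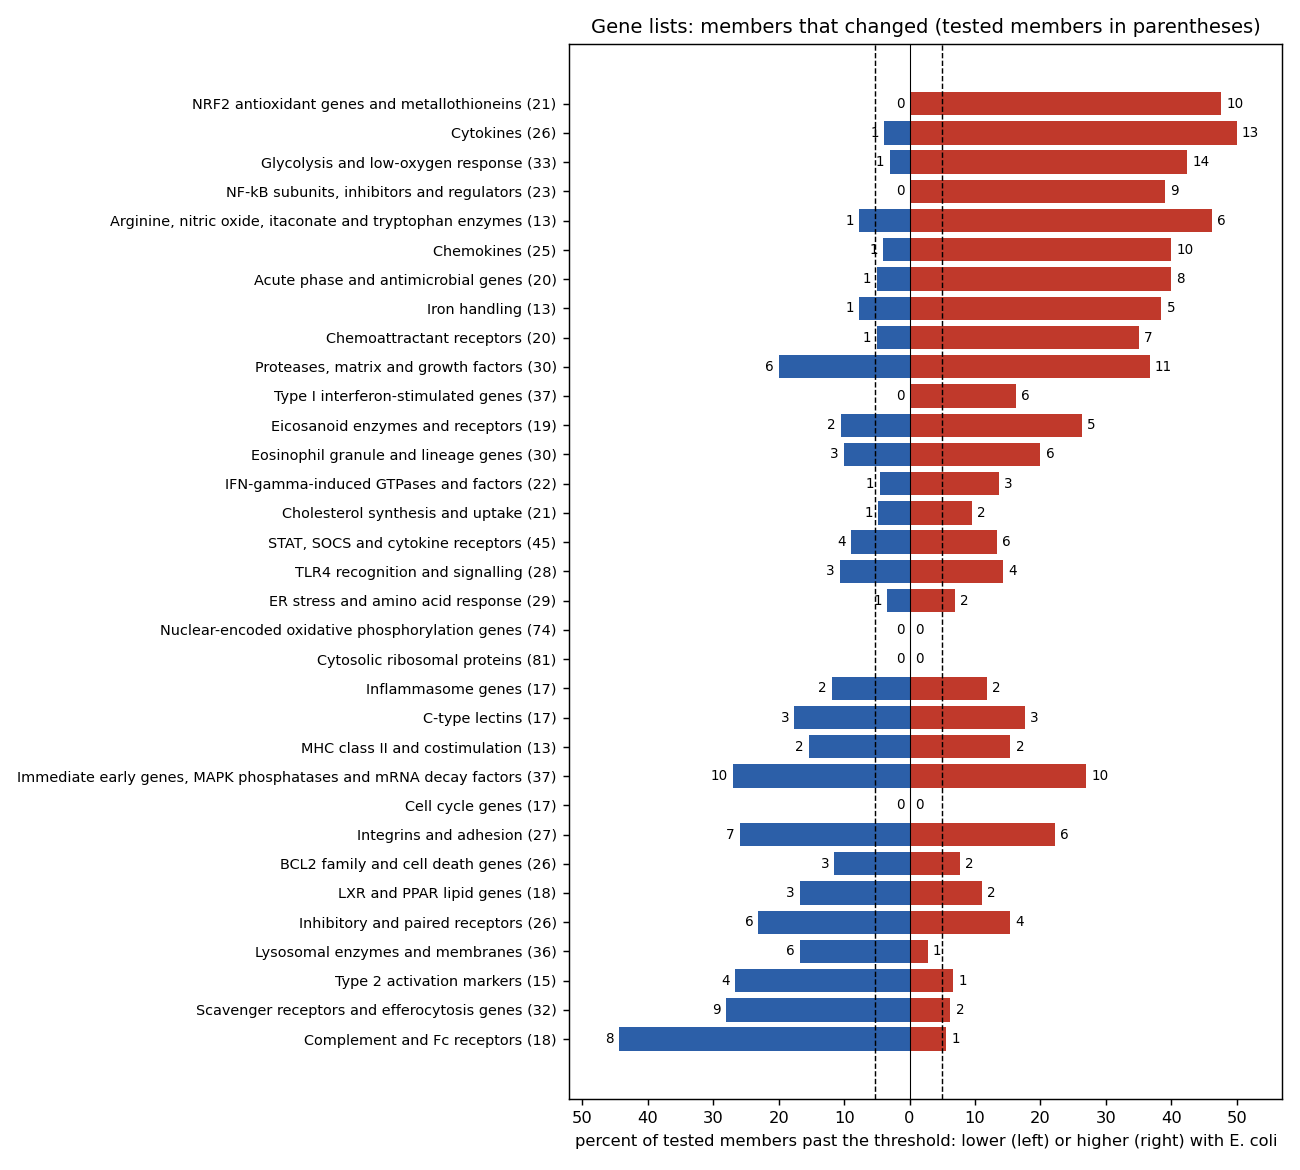
For each of 33 gene lists, the bars give the percent of tested members that were past the threshold and higher (red, right) or lower (blue, left) in E. coli + ACs against ACs, with the counts at the bar ends and the tested members in parentheses. The dashed lines mark the shares of all tested genes (4.9% higher, 5.24% lower). Cytokines (13 of 26), antioxidant genes (10 of 21) and glycolysis genes (14 of 33) reach far to the right, and complement and Fc receptor genes 44.4% on the left.

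The list for arginine, nitric oxide, itaconate and tryptophan metabolism held 6 risen and 1 fallen of 13 tested members (median 0.68), and not all of its members are enzymes. Besides Nos2, the cationic amino acid transporter Slc7a2, which supplies arginine, was at 636, 589 and 539 normalized counts with ACs and 2791, 2034 and 2349.5 with E. coli + ACs (2.01 ± 0.14, adjusted p = 1.15e-08, limma). Acod1, the enzyme that makes itaconate, was at 60.99, 60.1 and 51.4 with ACs against 378, 298 and 321 with E. coli (2.51 ± 0.16, adjusted p = 4.61e-09, limma). Both were higher in every E. coli library than in any ACs library. Gpr84, a receptor of medium-chain fatty acids (2.44), and the superoxide dismutase Sod2 (1.34) rose too. Arg1, arginase 1, which competes with Nos2 for arginine, fell from 6993, 7065 and 6089.7 to 5251, 3793 and 4014 (-0.64 ± 0.15, adjusted p = 0.00587, limma), and without E. coli + ACs replicate 2 its log2 fold change was -0.55, under 1.5-fold. Among 19 tested eicosanoid genes, 5 rose and 2 fell (median 0.21). The prostaglandin E synthase Ptges was at 436, 337 and 323 with ACs against 1412, 1054 and 1339 with E. coli (1.79 ± 0.14, adjusted p = 4.37e-08, limma). The cyclooxygenases Ptgs2 (1.93) and Ptgs1 (1.02), Ptges3 (0.76) and the platelet-activating factor hydrolase Pla2g7 (1.11) rose, and Alox12e (-1.37) and the prostaglandin receptor Ptger2 (-1.26) fell. Alox15, one of the abundant eosinophil transcripts, was at 9831, 8639.6 and 9753 with ACs against 8898, 8967 and 8926 with E. coli (-0.07, not past the threshold).

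Acute phase and antimicrobial genes rose in 8 of 20 tested members and fell in 1 (median 0.55). The calprotectin genes had the largest changes. S100a8 was at 46.4, 56.3 and 39.1 normalized counts with ACs and 383, 254 and 354 with E. coli + ACs (2.77 ± 0.22, adjusted p = 4.99e-08, limma). S100a9 was at 2.44, 0 and 4.08 with ACs against 51.9, 38.4 and 36.9 with E. coli, which is 3, 0 and 5 reads on the ACs side and a ratio of 18.7 with a counting interval of 9.25 to 44.1, and its log2 fold change of 4.05 was 3.36 without ACs replicate 2. Lcn2, an iron-chelator-binding protein, was at 7669, 8591 and 5926 with ACs against 17533, 13953 and 16610.3 with E. coli (1.13 ± 0.19), and the protease inhibitor Slpi was at 1003, 954 and 908 with ACs against 3192, 2529 and 2959 with E. coli (1.59 ± 0.13). All 4 had no overlap between groups. Saa1 (1.71), Slc11a1 (1.16) and the NADPH oxidase subunit Ncf1 (0.70) rose, and the peptidoglycan recognition protein Pglyrp1 fell (-1.11). Saa3, the most abundant member, was at 116403, 114633 and 81591 with ACs against 161659, 133592 and 168187 with E. coli (0.58) and missed the 1.5-fold threshold. Neutrophils also carry S100a8, S100a9 and Cxcr2. Over the neutrophil marker list the summed level was 2285 to 2592 normalized counts with ACs and 2680 to 2994 with E. coli + ACs, and of 7 tested members 3 rose and 1, Mmp8, fell (-1.44). The 3 risen members were 42.9% of those tested, against 4.9% of all tested genes. Other markers of the list were near the floor. Ly6g was at 2.44, 4.69 and 4.08 with ACs against 4.19, 6.54 and 7.04 with E. coli. Mpo was at 1.63, 0 and 3.26 with ACs against 0, 0 and 0 with E. coli, and Elane was at 3.25, 2.82 and 0 with ACs against 0, 0 and 0 with E. coli. The part of neutrophils in the result was not tested.

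Of 37 tested interferon-stimulated genes of the type I program, 6 rose (16.2%), 0 fell and 31 did not pass (median 0.18). The shares over all tested genes were 4.9% higher and 5.24% lower. Rsad2, which encodes the antiviral protein viperin, was at 3429, 2914 and 3242 with ACs against 7631, 6669 and 6300.0 with E. coli (1.102 ± 0.14, adjusted p = 1.51e-05, limma), and Isg15 was at 1195, 885 and 1076 with ACs against 2436, 1904 and 1997 with E. coli (1.01 ± 0.15). Both groups were apart for these genes. Ifi205 (1.17), Ifit1 (0.88) and Oasl1 (0.77) also rose. Usp18 (0.59) rose just past 1.5-fold and was under it without ACs replicate 2 (0.55) or E. coli + ACs replicate 3 (0.57). Irf7, at 7356 on average with ACs against 7681 with E. coli, and Stat2 (0.18) did not pass. Of 22 tested GTPases and factors known to be induced by IFN-γ, 3 rose (13.6%) and 1 fell (4.55%, median 0.05). These were Gbp5, at 37.4, 12.2 and 31.0 with ACs against 101, 109.5 and 62.5 with E. coli (1.82 ± 0.30, adjusted p = 0.00028, limma), Gbp3 (0.96), Gbp6 (1.17) and, lower, Gbp8 (-1.31). Gbp6 lost its call without ACs replicate 2 or 3 or E. coli + ACs replicate 1 or 2 (0.89 to 1.17, adjusted p up to 0.145, limma). Irf1 (-0.18) and Cxcl9 (0.20) did not pass. Among 13 tested genes of MHC class II and costimulation, 2 rose and 2 fell (15.4% each, median 0.07). The checkpoint ligand Cd274, which encodes PD-L1, was at 185, 195 and 161 with ACs against 414, 460.3 and 439 with E. coli (1.27 ± 0.13, adjusted p = 1.34e-06, limma), and Cd86 fell from 156, 134 and 142 to 90.4, 80.9 and 73.9 (-0.81 ± 0.19). The peptide-loading gene H2-DMb1 fell (-1.13), but not past the threshold without E. coli + ACs replicate 2 (-0.94, adjusted p = 0.0549, limma). Cd40 rose by 0.61, and its adjusted p in limma went up to 0.184 when single libraries were left out (ACs replicate 2 or 3, E. coli + ACs replicate 1 or 3).

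Antioxidant genes were called in 1 direction: 10 of 21 tested members of the list of metallothioneins and genes that the factor NRF2 is known to control were higher and 0 lower (median 0.61). Slc7a11, the cystine importer, was at 143, 153 and 129.7 normalized counts with ACs and 561, 624 and 564 with E. coli + ACs (2.03 ± 0.15, adjusted p = 3.09e-08, limma). Gclm, the modifier subunit of glutathione synthesis, was at 188, 178 and 167 with ACs against 675, 601 and 638 with E. coli (1.84 ± 0.12), and the quinone reductase Nqo1 was at 97.6, 82.6 and 114 with ACs against 316, 369 and 378 with E. coli (1.85 ± 0.18). The libraries of a group lay close together for all 3, with no overlap. Txnrd1 (1.49), Srxn1 (1.41), Slc39a14 (1.24), Gclc (1.23), Prdx1 (1.18) and the haem oxygenase Hmox1 (0.87) also rose. Nfe2l2, the gene of NRF2 itself, was at 607 on average with ACs against 718 with E. coli (0.24) and did not pass, nor did the metallothioneins Mt1 (-0.01) and Mt2 (0.35). Among 13 tested iron genes, 5 rose and 1 fell (median 0.25). The ferritin heavy chain Fth1 was at 27704, 26023 and 21689.6 with ACs against 54834, 48736 and 52003 with E. coli (1.05 ± 0.13, adjusted p = 2.11e-05, limma), ceruloplasmin (Cp) rose by 1.103, and Hfe fell by 1.15 on the log2 scale.

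Glycolysis and low-oxygen genes rose in 14 of 33 tested members and fell in 1 (median 0.59). The changes were modest and spread over several steps of the pathway. Slc16a3, the lactate exporter, was at 606, 667 and 680.2 normalized counts with ACs and 1382, 1540.2 and 1526 with E. coli + ACs (1.19 ± 0.14, adjusted p = 1.10e-05, limma). Hif1a was at 622, 738 and 617 with ACs against 1155, 1234 and 1208 with E. coli (0.87 ± 0.14). Both were without overlap. The enzymes Eno1 (0.96), Tpi1 (0.80), Pgk1 (0.78), Aldoa (0.77) and Pkm (0.66) rose, as did Pfkfb3 (0.87), P4ha1 (0.92), Ero1l (0.89) and Egln3 (0.87). Epas1, the gene of HIF-2α, was the member that fell, from 122, 112 and 119 to 51.1, 30.2 and 30.8 (-1.67 ± 0.33). The hexokinases Hk1 (-0.19), Hk2 (0.15) and Hk3 (-0.44) and Ldha (0.45) did not pass. By contrast, 0 of 74 nuclear-encoded oxidative phosphorylation genes, 0 of 81 cytosolic ribosomal protein genes and 0 of 17 cell cycle genes passed in limma, with median log2 fold changes of 0.11, 0.11 and -0.13.

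Of the 20 largest falls, 3 were genes of C-type lectins. Clec10a, a galactose-binding lectin with the largest fall, was at 71.6, 97.6 and 59.5 normalized counts with ACs and 0.84, 3.27 and 10.6 with E. coli + ACs (-4.07 ± 0.63, adjusted p = 0.000175, limma). Mrc1, the mannose receptor CD206, was at 97.6, 134 and 94.6 with ACs against 10.1, 7.36 and 14.9 with E. coli (-3.25 ± 0.55, adjusted p = 0.000416, limma). Clec12a, an inhibitory receptor, was at 908, 997 and 914 with ACs against 131, 153 and 139 with E. coli (-2.73 ± 0.17, adjusted p = 2.91e-09, limma). All 3 were lower in every E. coli library than in any ACs library, as their choice required. The log2 fold change of Clec10a was -3.43 without E. coli + ACs replicate 1 and -4.75 without replicate 3. Other lectins moved the other way, so the list of 17 tested members held 3 that rose and 3 that fell (median 0.24). Clec4e, known as Mincle, was at 530.2, 361 and 378 with ACs against 1786, 1464 and 1458 with E. coli (1.90 ± 0.15), Olr1 rose by 1.57, and Clec4n, known as dectin-2, by 1.18. Clec7a, dectin-1, had a log2 fold change of 0.29 and did not pass.

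Complement genes and receptors of apoptotic cells were called lower more often than higher. Of 18 tested complement and Fc receptor genes, 8 fell and 1 rose (median -0.51), and of 32 tested scavenger and efferocytosis genes, 9 fell and 2 rose (median -0.3). C1qc was at 9299, 8681 and 6977 normalized counts with ACs and 3325, 2471 and 2993 with E. coli + ACs (-1.51 ± 0.15, adjusted p = 9.16e-07, limma), and the other chains C1qb (-1.37) and C1qa (-1.32), its neighbours on chromosome 4 (136880129 to 136898803), fell alike. Vsig4, a receptor of complement fragments that is a member of neither list, was at 655, 473 and 505 with ACs against 93.8, 81.8 and 67.7 with E. coli (-2.73 ± 0.24, adjusted p = 2.25e-07, limma). The groups did not overlap for C1qc or Vsig4. Anxa1 was at 274, 295 and 234 with ACs against 56.9, 58.0 and 47.5 with E. coli (-2.28 ± 0.23, adjusted p = 1.01e-06, limma). The scavenger receptor Cd36 (-1.56), the phosphatidylserine receptors Timd4 (-1.27) and Havcr2 (-1.88), the bridging proteins Pros1 (-1.28) and Mfge8 (-0.91) and the uptake receptor Lrp1 (-1.004) fell as well. Mertk (-0.40) and Axl (-0.21) did not pass. Trem1 was the main scavenger list member that rose, and the Fc receptor Fcgr3 rose by 0.65. The other was Cd300c2 (0.59), under 1.5-fold without ACs replicate 2 or 3 or E. coli + ACs replicate 1 or 3 (0.53 to 0.58). Mfge8 lost its call when any library of the groups but E. coli + ACs replicate 3 was left out (-0.96 to -0.76, adjusted p up to 0.157, limma). Cd163, a macrophage receptor for haemoglobin, was at 45.5, 72.3 and 40.0 with ACs against 14.2, 4.91 and 6.16 with E. coli (-2.59 ± 0.77, adjusted p = 0.0327, limma), and leaving out any library but E. coli + ACs replicate 1 ended this call (-2.76 to -2.31, adjusted p up to 0.145, limma).

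Several genes of these 2 lists are also in the list of large peritoneal macrophage markers, so the same values enter more than 1 count. Of the 23 tested macrophage markers, 20 had a log2 fold change under 0 (median -0.47). Past the threshold, 7 fell and 2 rose, and 14 did not pass. Vsig4, Cd163, the C1q chains and Timd4 were among the 7, and Itgam (0.85) and Selp (0.82), which other leukocytes and platelets also carry, were those that rose. The peritoneal macrophage genes Gata6 (187, 118 and 123 with ACs against 101, 81.8 and 87.1 with E. coli, -0.63), Prg4 (-0.27) and F5 (-0.38) did not pass. Whether the markers differed from each other in the size of the change was not tested. The part of macrophages in the result was not tested. Of 36 tested lysosomal genes, 6 fell (16.7%) and 1 rose (2.78%), against 5.24% and 4.9% of all tested genes. Their median of -0.04 was near that of all tested genes (-0.01), and 29 members did not pass. Cathepsin L, Ctsl, was at 2557, 2605 and 2045 with ACs against 1097, 842 and 966 with E. coli (-1.31 ± 0.15, adjusted p = 7.48e-06, limma), and Gusb (-1.08), Gpnmb (-1.05) and Cd68 (-0.90) fell. Lamp1 (0.08) and Lamp2 (-0.04) did not pass. Of 7 tested monocyte and dendritic cell markers, 1 fell, the fibronectin gene Fn1 (from 270.0, 238 and 239 to 92.1, 76.0 and 95.0), with summed levels of 14515 to 21008 with ACs and 19752 to 25492 with E. coli + ACs. Of 6 tested B cell markers 1 fell, Ighm, from 861, 880.3 and 992 to 257, 227 and 255 (-1.88 ± 0.18), and the B cell sum was 1302 to 1537 with ACs and 614.8 to 683.5 with E. coli + ACs. Thymocyte markers held 2 risen members of 14, Trbc2 (0.99) and Cd247 (1.31), of which neither held its call when single libraries were left out (adjusted p in limma up to 0.0865 for Trbc2 without ACs replicate 1 or 2 or E. coli + ACs replicate 1 or 3, and up to 0.131 for Cd247 without any library but ACs replicate 1). The only tested mast cell and basophil marker, the histidine decarboxylase Hdc, rose by 0.72, with sums over that list of 202.7 to 286.2 and 366.2 to 414.4.

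Other genes among the 20 largest falls have diverse known roles. Abcg3, an ABC transporter, was at 155, 145 and 153 normalized counts with ACs and 11.7, 11.4 and 7.92 with E. coli + ACs (-3.76 ± 0.59, adjusted p = 0.000175, limma). Krt80, a keratin, was at 940.0, 879 and 1012 with ACs against 155, 157 and 217 with E. coli (-2.43 ± 0.18, adjusted p = 2.35e-08, limma), and Cbx8, a Polycomb protein, was at 342, 317 and 359 with ACs against 72.0, 45.0 and 62.5 with E. coli (-2.51 ± 0.37, adjusted p = 9.66e-05, limma). Every E. coli library was lower than every ACs library for these 3, which the choice of the 20 largest falls required. Dmpk (-2.53), Inpp4b (-2.36), Serpinb8 (-2.25), Tmem37 (-2.56), E230014E18Rik (-2.80), Gm48832 (-3.49) and Gm31520 (-2.59) fell. Adgrg5 (-2.50), Hadh (-2.50) and Gm30054 (-2.49) rested on fewer libraries, since the adjusted p in limma rose above 0.05 when single libraries were left out: E. coli + ACs replicate 2 for Adgrg5 (0.0559), any library but E. coli + ACs replicate 3 for Hadh (up to 0.0821), and ACs replicate 1 or 3 or E. coli + ACs replicate 1 for Gm30054 (up to 0.123).

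Immediate early genes were called in both directions. Of 37 tested members of the list of immediate early genes, MAP kinase phosphatases and mRNA decay factors, 10 rose and 10 fell (median 0.15). Egr1, a transcription factor of the serum response, was at 494, 494 and 637 normalized counts with ACs and 107, 172 and 104 with E. coli + ACs (-2.11 ± 0.26, adjusted p = 1.17e-05, limma), and Fos was at 2201, 2060.0 and 2165 with ACs against 1187, 1092 and 1093 with E. coli (-0.93 ± 0.14). Klf2, a factor that restrains myeloid activation, was at 1228, 1359.8 and 1258 with ACs against 471, 441 and 504 with E. coli (-1.44 ± 0.15, adjusted p = 1.81e-06, limma). No E. coli library reached the lowest ACs library in any of them. Klf4 (-1.52), Klf10 (-1.52), Btg2 (-0.95), Junb (-0.86), Dusp1 (-0.80), Jun (-0.67) and Ier2 (-0.66) also fell. Without E. coli + ACs replicate 2, Jun had a log2 fold change of -0.58, just under 1.5-fold. The mRNA decay enzyme Zc3h12a, known as regnase-1, was higher, at 76.4, 71.3 and 71.8 with ACs against 262, 195 and 216 with E. coli (1.59 ± 0.17, adjusted p = 1.70e-06, limma). Dusp2 (1.48), Zc3h12c (1.45), Atf3 (1.29), Dusp16 (1.14), Mapkapk2 (1.099), Dusp5 (1.09) and Ier3 (0.71) also rose. So did the AP-1 factor Fosl1 (1.09), whose call was lost without any library of the groups but ACs replicate 2 (0.81 to 1.25, adjusted p up to 0.21, limma), and Mafg (0.59). Zfp36, which encodes tristetraprolin, was at 1578, 1586 and 1638 with ACs against 1607, 1582 and 1521 with E. coli (-0.03) and did not pass.

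Genes of the eosinophil lineage and of type 2 activation were called in both directions. Of 30 tested granule and lineage genes, 6 rose and 3 fell (median 0.4). The 3 were Il5ra, Cebpa (-1.03) and Galc (-0.62), of which 1 kept its call without ACs replicate 1, 2 or 3 and each lost it without E. coli + ACs replicate 3 (adjusted p up to 0.0822, limma). Cd9, a tetraspanin, was at 452, 590.3 and 479.6 normalized counts with ACs and 1773, 1762 and 2043 with E. coli + ACs (1.88 ± 0.14, adjusted p = 2.35e-08, limma), and the eosinophil ribonuclease Ear6 was at 689.6, 734 and 685 with ACs against 1776, 2284 and 1945 with E. coli (1.502 ± 0.13). Both were fully separated. The common beta chain of the IL-3, IL-5 and GM-CSF receptors, Csf2rb, was at 8482, 8787 and 7873 with ACs against 18034, 18061 and 16127 with E. coli (1.05 ± 0.11, adjusted p = 1.43e-06, limma), and its relative Csf2rb2 (0.91) rose as well. These 2 genes are near-identical copies. The study's methods count uniquely mapped reads alone, by which reads that fit both copies are lost, so their values are uncertain, as are those of close copies in the Ear, Gbp and Naip families. The IL-5 receptor alpha chain Il5ra fell, from 388, 443 and 455 to 264, 338 and 230.5 (-0.64 ± 0.16), a call lost without ACs replicate 3 (-0.60, adjusted p = 0.0504, limma) or without E. coli + ACs replicate 3 (-0.52, 0.0647). Siglecf (-0.30), Gata1 (0.54), Prg2 (0.56) and Alox15 did not pass. Of 15 tested type 2 markers, 4 fell and 1 rose (median -0.09): Clec10a, Mrc1, Klf4 and Arg1 were lower, and Socs2 was higher (0.85). Retnla, among the most abundant genes of these libraries, was at 29367, 33575 and 26657 with ACs against 27757, 26755 and 29275 with E. coli (-0.09), and neither it nor Chil3 (-0.30) passed.

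Surface receptors and secreted proteins of tissue remodelling moved in both directions. Of 30 tested proteases, matrix proteins and growth factors, 11 rose and 6 fell (median 0.12). Met, the receptor of hepatocyte growth factor, was at 49.6, 61.9 and 66.1 normalized counts with ACs against 234, 217 and 234 with E. coli (1.94 ± 0.25), and Serpinb2 (1.53), Mmp13 (1.55), Thbs1 (1.46), Mmp14 (1.46) and Plaur (1.32) rose. Fn1, Mmp8 (548, 534 and 485 with ACs against 220.2, 200.3 and 159 with E. coli), Tgfbi (-1.33), Timp2 (-1.24), Serpinb1a (-1.22) and Mmp19 (-1.21) fell. The integrin and adhesion list had 6 risen and 7 fallen of 27 tested (median 0.12), with Itgam at 6257, 5605 and 5867 with ACs against 9904, 11504 and 10535 with E. coli (0.85 ± 0.11) and Icam1 (1.003) among the first and Itga2 (-1.82), Itga6 (-1.27) and Itgb7 (-1.12) among the others. Inhibitory and paired receptors had 4 risen and 6 fallen of 26 (median -0.02). Slamf1, at 17.1, 11.3 and 13.1 with ACs against 234, 152 and 143 with E. coli (3.57 ± 0.22), Pilra (1.21) and Slamf7 (1.12) were higher, and Clec12a, Lair1 (-1.91, or -1.19 without E. coli + ACs replicate 2) and Siglecg (-1.11) were lower.

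The other lists were called in both directions, against 4.9% higher and 5.24% lower over all tested genes. Of 45 tested STAT, SOCS and cytokine receptor genes, 6 rose (13.3%) and 4 fell (8.89%, median 0.22), and 2 fell without ACs replicate 1, 2 or 3 or E. coli + ACs replicate 3. The decoy receptor Il1r2 was at 126, 106 and 111 normalized counts with ACs and 426, 614 and 471 with E. coli + ACs (2.12 ± 0.22, adjusted p = 1.83e-06, limma), Tnfrsf1b rose by 1.71, and the shared IL-6 receptor chain Il6st (-1.32) and the kinase Jak2 (-0.76) fell. Inflammasome genes gave 2 and 2 of 17 (11.8% each, median 0.09), with the sensor Nlrp3 at 29.3, 25.3 and 28.5 with ACs against 129.8, 101 and 129 with E. coli (2.07 ± 0.24, adjusted p = 6.06e-06, limma), Gsdme higher (1.43), and Naip6 (-1.22) and Pycard (-0.72) lower. BCL2 family and cell death genes gave 2 risen, of which the caspase-8 inhibitor Cflar (0.84) is 1, and 3 fallen of 26 (7.69% and 11.5%, median 0.13). The other risen member, Bax (0.77), and the fallen BH3-only genes Bmf (-1.37), Bbc3 (-1.30) and Bcl2l11 (-0.65) each lost the call without at least E. coli + ACs replicate 1 (Bax 0.74, adjusted p = 0.078, Bmf -1.17, 0.152, Bcl2l11 -0.58, under 1.5-fold) or, for Bbc3, without ACs replicate 2 (-1.20, 0.0735, limma). Cholesterol genes gave 2 and 1 of 21 (9.52% and 4.76%, median 0.13), LXR and PPAR lipid genes 2 and 3 of 18 (11.1% and 16.7%, median -0.18), with Cpt1a (-1.19) and Fabp5 (-1.34) lower, and genes of ER stress and the amino acid response 2 and 1 of 29 (median -0.05), with Slc3a2 (0.85) higher and Ddit4 (-0.81) lower.

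Mitochondrially encoded RNA was the last list. Of the 13 mitochondrially encoded protein genes, 1 fell, mt-Nd6 (-1.42), whose call was lost without any library but E. coli + ACs replicate 3 (-1.54 to -0.97, adjusted p up to 0.208, limma). Their sum was 169660 to 194754 normalized counts with ACs and 160903 to 196129 with E. coli + ACs. The mitochondrial ribosomal RNAs were lower: mt-Rnr2 took 5.42% to 6.26% of all normalized counts in the ACs libraries and 2.09% to 2.94% in the E. coli + ACs libraries (-1.09 ± 0.15, adjusted p = 5.69e-05, limma), and mt-Rnr1 fell by a log2 fold change of -1.17. These transcripts were chosen for mention after their values were seen, and their part in the other changes was not tested.

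Of 14 genes that the study's text names for E. coli with apoptotic cells, 13 were tested, and 10 rose and 0 fell. The study names them among transcripts that E. coli raised and that apoptotic cells then lowered. A rise with E. coli was thus part of how they were chosen. Its comparison of E. coli with and without apoptotic cells also includes the E. coli + ACs libraries. The list is therefore not independent of these data, and nothing is read from its counts. Cells given E. coli without apoptotic cells were not analysed here. Besides those given above, Il6 was at 29.3, 35.7 and 34.2 normalized counts with ACs and 69.5, 50.7 and 81.8 with E. coli + ACs (0.98 ± 0.27, adjusted p = 0.0193, limma). The groups were apart, but single libraries decided the call: without ACs replicate 1 or 3 or E. coli + ACs replicate 1 or 3, the log2 fold change of Il6 was 0.83 to 1.01 and the adjusted p in limma 0.0524 to 0.105. Cd80 (0.24), Ccl2 and Tlr4 did not pass, and Pdcd1lg2, at 3.25, 3.75 and 0 with ACs against 8.37, 10.6 and 4.40 with E. coli, had a mean under 10.

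With IFN-γ present, E. coli changed 1468 genes (14.3%), of which 603 rose (5.89%) and 865 fell (8.45%). Of the 502 genes that rose without IFN-γ, 375 (74.7%) had a log2 fold change above 0 with IFN-γ, and 173 (34.5%) rose past the threshold. Of the 536 that fell, 411 (76.7%) had one below 0 and 190 (35.4%) fell past it. The share with the same sign over all tested genes was 59.2%. The median log2 fold change of the risen genes was 0.39 with IFN-γ, and that of the fallen genes was -0.51, while all tested genes had a median of -0.03. Across the 10235 genes, which are not independent replicates, the correlation of the fold changes was 0.38. The opposite change passed the threshold for 23 of the risen and 14 of the fallen genes.

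**Figure D4:**
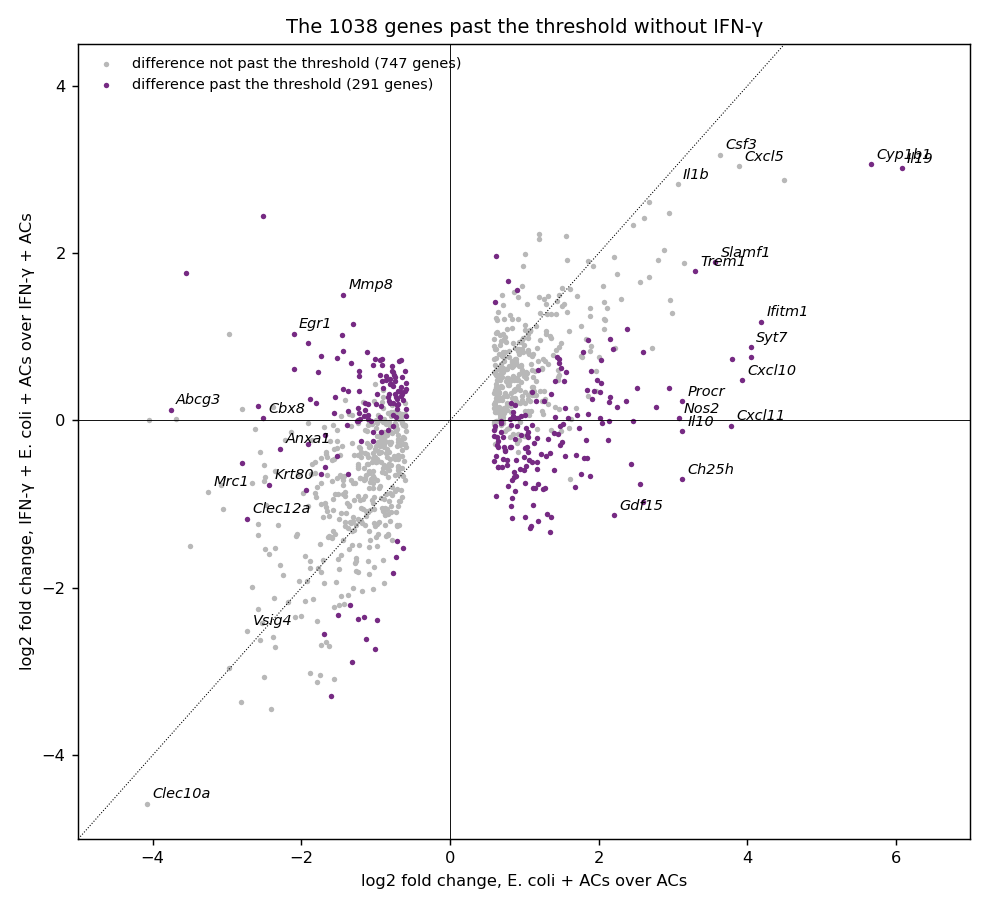
The log2 fold change of E. coli + ACs over ACs (horizontal) and of IFN-γ + E. coli + ACs over IFN-γ + ACs (vertical) for the 1038 genes past the threshold without IFN-γ. The dotted line marks equal changes. The 291 purple genes have a difference of the effects past the threshold. Most of the named risen genes lie under the line, such as Ifitm1 at 4.18 and 1.18, while Cxcl5 and Csf3 lie close to it. The genes were chosen by their horizontal value, which favours a smaller vertical one, so nothing is read from how many lie under the line.

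Several of the chemokines and cytokines above also rose with IFN-γ present, while the chemokine list as a whole did not keep its bias. Of its 25 tested members 6 rose and 9 fell with IFN-γ (median -0.31), against 10 and 1 without it, and the falls included Ccl2 (-1.01) and Cxcl13 (-0.70). Cxcl5 was at 11.9, 18.3 and 24.6 normalized counts in IFN-γ + ACs and 178, 119.7 and 163 when E. coli was added (3.04 ± 0.35, adjusted p = 6.52e-06, limma). Csf3 was at 6.60, 5.73 and 2.05 without and 61.3, 47.6 and 37.2 with E. coli (3.18 ± 0.42, adjusted p = 3.43e-05, limma), and Il1b was at 7.91, 10.3 and 22.6 without and 111, 96.5 and 75.9 with E. coli (2.82 ± 0.41). The groups were apart in all 3. Cxcl1 (2.61), Cxcl2 (1.48), Cxcl3 (2.42), Ccl3 (1.90), Irak3 (1.57), Ptgs2 (1.84) and Hif1a (0.86) also rose past the threshold. Among the falls, Clec10a was at 73.9, 73.4 and 73.9 without and 0, 4.89 and 4.14 with E. coli (-4.58 ± 0.63, adjusted p = 5.27e-05, limma), Vsig4 was at 321, 391 and 304 without and 61.3, 36.6 and 86.9 with E. coli (-2.51 ± 0.24), and C1qc (-2.33) fell as well. In all, 11 of the 20 largest rises and 8 of the 20 largest falls passed in the same direction. Beside these falls, 17 of the 23 macrophage markers fell with IFN-γ present, and their sum was 56989 to 68584 normalized counts in IFN-γ + ACs and 34103 to 38524 once E. coli was added. The cytokine list again had 13 risen and 1 fallen members, the glycolysis list had 15 and 2, and the NRF2 list had 4 and 5.

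The difference between the effects with and without IFN-γ, tested as an interaction in the same fit, was past the threshold for 750 genes (7.33%), negative for 430 and positive for 320. Among the 502 genes that rose without IFN-γ the difference was negative for 163 and positive for 4, and among the 536 that fell it was positive for 110 and negative for 14. These genes were chosen by their effect without IFN-γ, which is part of the difference, so the choice favours a smaller effect with IFN-γ and nothing is read from these counts. The number past the threshold was 430 without ACs replicate 3, 394 without E. coli + ACs replicate 1 and 482 without replicate 2 of IFN-γ + ACs. Cxcl10 was at 2447, 2649 and 3448 normalized counts in IFN-γ + ACs and 3557, 3486 and 4906 when E. coli was added, so the 6 libraries with IFN-γ lay within or above the range that E. coli gave without it, and the difference of the effects was -3.44 ± 0.25 (log2, SE; adjusted p = 1.05e-07, limma). Nos2 was at 5408, 6298 and 4383 without and 4509, 5899 and 5898 with E. coli, far above the 638 on average with E. coli + ACs, and its groups with IFN-γ overlapped (-3.05 ± 0.25). Cxcl11 (-3.84 ± 0.36) showed the same order, at 166, 205 and 267 without and 212, 169.8 and 221 with E. coli. Il10 differed in kind: it was at 113, 71.1 and 75.9 without and 72.7, 64.7 and 99.3 with E. coli, all below the lowest of the E. coli + ACs libraries (-3.25 ± 0.40, adjusted p = 3.94e-05, limma). Ch25h, at 60.7, 98.6 and 86.2 without and 51.3, 34.2 and 66.2 with E. coli, was lower on average with E. coli when IFN-γ was present (-0.70, not past the threshold, difference -3.82 ± 0.38). Gdf15, a stress cytokine, was at 54.1, 82.5 and 59.5 without and 28.5, 35.4 and 23.4 with E. coli and fell (-1.14, difference -3.34 ± 0.49), after a rise from 4.88, 5.63 and 3.26 to 25.1, 18.8 and 30.8 without IFN-γ. The fall of Gdf15 was not past the threshold without replicate 2 of IFN-γ + ACs or replicate 1 or 3 of IFN-γ + E. coli + ACs (-1.13 to -0.96, adjusted p up to 0.124, limma).

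In the other direction, Mmp8, the neutrophil collagenase, fell without IFN-γ and rose with it, from 216, 228 and 179 to 653, 535 and 578 normalized counts (1.502 ± 0.15, difference 2.94 ± 0.21, adjusted p = 1.05e-07, limma). Egr1 also turned from a fall to a rise, at 69.9, 29.8 and 41.0 without and 96.9, 97.7 and 81.4 with E. coli (1.04 ± 0.26, difference 3.14 ± 0.36), although the rise missed the threshold without replicate 2 of IFN-γ + ACs (0.76, adjusted p = 0.0515, limma). Both rises left the groups apart. With IFN-γ, Abcg3 was at 1.32, 16.1 and 10.3 without and 5.70, 15.9 and 4.14 with E. coli, near its level with E. coli + ACs, and did not pass there (difference 3.89 ± 0.83). Mapt, the gene of tau, was at 182, 221 and 210.4 in ACs and 91.2, 77.7 and 63.3 in E. coli + ACs, and under IFN-γ it was at 7.91, 18.3 and 0 without the bacteria and 25.7, 17.1 and 22.1 together with them. Its difference was 3.41 ± 0.92 (adjusted p = 0.0292, limma) and lost its call when any library without IFN-γ, or replicate 1 of IFN-γ + E. coli + ACs, was left out (3.27 to 3.53, adjusted p up to 0.0761). 2610507I01Rik had a difference of 2.90 ± 0.71, which missed the threshold without ACs replicate 1 (2.65, adjusted p = 0.0515, limma) or ACs replicate 3 (2.63, 0.0638). Of the immediate early list, 0 of 37 members fell with IFN-γ and 9 rose in limma, and 17 had a difference of the effects past the threshold.

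**Figure D5:**
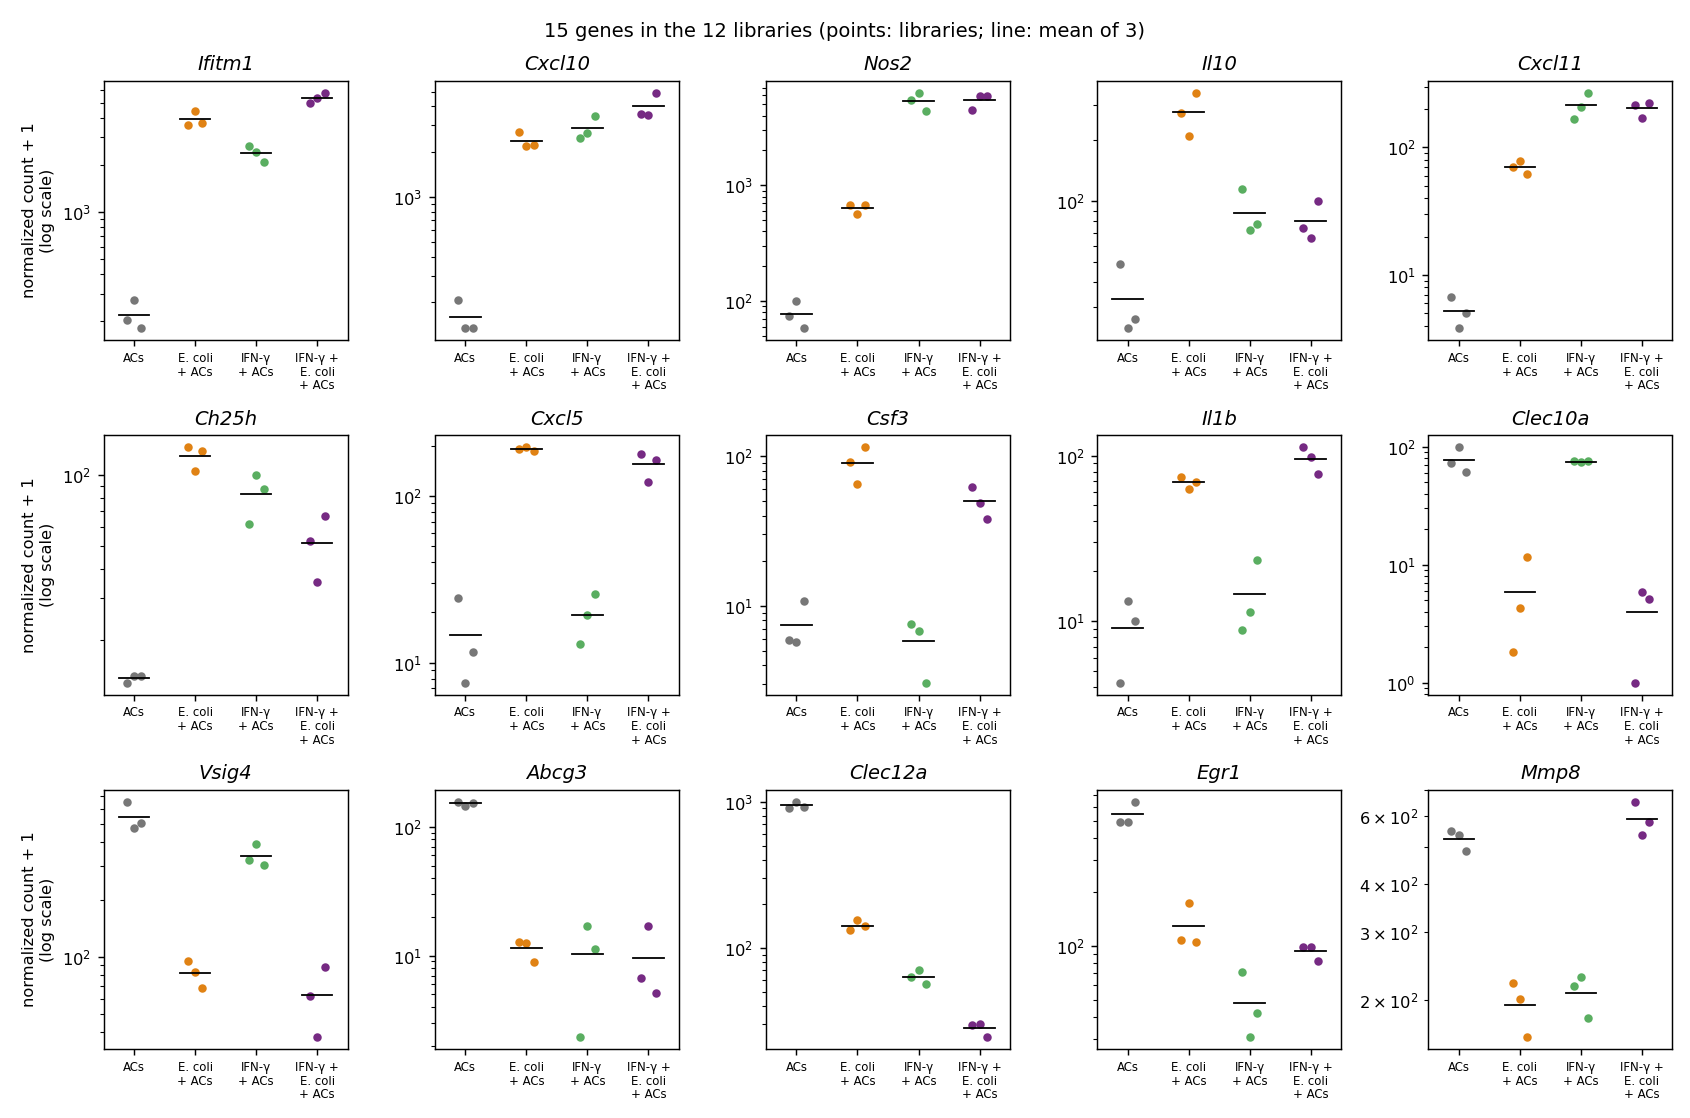
Normalized count + 1 on a log axis in the 12 libraries of the 4 groups for 15 genes, with 1 point a library and a line at the mean of 3. Cxcl5, Csf3 and Il1b are higher with E. coli both without and with IFN-γ, Clec10a and Vsig4 are lower in both, and Nos2, Cxcl11 and Abcg3 hold about the same level in both IFN-γ groups.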

How the data were processed

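RNA was measured by CEL-Seq2 in eosinophils of Il5Tg mice cultured with apoptotic cells, with or without E. coli and IFN-γ. The authors deposited 1 table of 54446 genes and 18 libraries that holds the signal as counts divided by DESeq2 size factors, so a value is a normalized count. The submitters' processing notes name FastQC 0.11.5, Trim Galore, cutadapt 1.10, TopHat2 2.1.0, Bowtie2 2.2.6, HTSeq 0.6.1, DESeq2 1.26.0 and the mouse build GRCm38. The study's methods describe more than 1 pipeline, and which of them made the table is not given in the sources used here. Dividing each library's values by its smallest step gave whole reads for 100.0% of values (within 0.05 reads), which set the reads on genes: 4234312 to 5078760 in the 6 libraries compared and 2216917 to 4090386 in the 6 with IFN-γ. With 3 libraries a group, an exact permutation test of a single gene could not go below p = 0.1.

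Samples were grouped by the labels. Values were tested as log2(normalized count + 1) by limma 3.58.1 (R 4.3.3; trended empirical Bayes) in the 12 libraries of the 4 groups. A fold change is on this scale, which understates the change of low genes. Genes needed a mean of at least 10 over the 6 libraries, and a call needed a Benjamini-Hochberg adjusted p under 0.05 and at least 1.5-fold. Symbols, coordinates and gene types came from GENCODE (GRCm38), which matched 54409 gene IDs. Promoter sequences were from RefSeq (GRCm38.p6). Replicate numbers did not pair the libraries: residuals of libraries with the same number correlated at -0.01 to 0.078. The fit was tested on simulated data. Alternatives were a pseudocount of 5, no filter, a mean of at least 50, TMM factors, a common upper quartile, array weights, a replicate block, the 6 libraries alone, no fold threshold, leaving out each library and, with the reads that were recovered, DESeq2 1.42.0 and edgeR 4.0.16. Counting intervals cover counting error only. The members and gene lists were chosen with earlier results of these data known. Named genes were the 20 largest rises and falls past the threshold with no overlap and, in the group where they were higher, at least 50 normalized counts on average, up to 8 members per list with the largest called changes and members that define it, all genes the study's text names for this stimulus, and the 5 largest differences of the effects in each direction. Some genes that this rule takes are not reported here, and they stay in the counts. The 6 libraries of the IL-4 experiment were not used in the tests.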

Additional observations from a re-analysis of the deposited data

Results flagged for a closer look

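The E. coli effect differed with and without IFN-γ, by the test of the difference itself in limma, for 750 genes. This is what flagged each gene given here, with the difference on the log2 scale (effect with IFN-γ minus effect without). Among the genes described in the report, the difference was negative for Cxcl11 (-3.84), Ch25h (-3.82), Cxcl10 (-3.44), Gdf15 (-3.34), Il10 (-3.25), Syt7 (-3.17), U90926 (-3.06), Il19 (-3.06), Nos2 (-3.05), Ifitm1 (-3.01), Procr (-2.89), Cyp1b1 (-2.59), Edn1 (-2.56), Slamf1 (-1.68) and Trem1 (-1.51). All of these rose without IFN-γ, and all but Gdf15 were named for that rise, a choice that favours a smaller effect with IFN-γ. Il19 illustrates the smaller rise, at 6.60, 1.15 and 2.05 normalized counts in IFN-γ + ACs and 37.1, 33.0 and 19.3 when E. coli was added, against 223, 124 and 224 with E. coli + ACs. Procr was high in both IFN-γ groups, at 621, 929.6 and 827 without and 831, 1069 and 869 with E. coli, compared with 48.8, 38.5 and 26.1 with ACs and 399, 277 and 316 with E. coli + ACs.

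The difference was positive for Clec12a (1.55), Krt80 (1.66), Anxa1 (1.95), E230014E18Rik (2.29), Cbx8 (2.54), Gm31520 (2.76), 2610507I01Rik (2.90), Mmp8 (2.94), Egr1 (3.14), Mapt (3.41) and Abcg3 (3.89). Clec12a fell without IFN-γ, and in the IFN-γ libraries it was at 62.0, 69.9 and 55.4 normalized counts without and 28.5, 29.3 and 23.4 with E. coli. Anxa1 was at 67.3, 67.6 and 65.7 without and 48.5, 39.1 and 77.3 with E. coli, and Cbx8 was at 21.1, 11.5 and 14.4 without and 28.5, 18.3 and 6.90 with E. coli. The calls for 2610507I01Rik and Mapt were lost when single libraries were left out, as given above with the libraries. No cause of these differences was tested.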

How the results depend on the processing

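No fold change among 284 genes (list members past the threshold, the largest changes and the genes the study names) turned its direction under any of 23 alternatives. The choice of genes largely fixed this, since the groups did not overlap for 1027 of the 1038 genes past the threshold. Of the 277 among the 284 that were past the threshold, 53 lost the call under at least 1 alternative, most often when a library was left out. The genes that fell numbered 936 in a fit of the 6 libraries alone and 910 with array weights, against 536, and the cause was not tested. Leaving out 1 of the 6 libraries gave 399 to 462 genes that rose and 357 to 412 that fell, and leaving out a library with IFN-γ gave 497 to 528 and 538 to 620, so the totals ran from 773 to 1148. The effect with IFN-γ gave 1168 to 1784 genes and the difference 394 to 1015, with 430 without ACs replicate 3, 394 without E. coli + ACs replicate 1 and 482 without replicate 2 of IFN-γ + ACs. Of the 82 counts of list members that rose or fell, 24 moved by over 1.5 times without at least 1 library, and each of these was of at most 4 members. With the replicate block, 1045 genes passed (499 higher, 546 lower), 1483 with IFN-γ and 737 for the difference. The recovered reads gave 544 higher and 717 lower by edgeR, and 551 and 719 by DESeq2, and these held 497 of the 502 risen genes in both tools and 536 and 535 of the fallen. Depth limits genes near a mean of 10 most, and genes under it were not tested.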

Other observations

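Besides Cyp1b1, other genes known as targets of the aryl hydrocarbon receptor were looked up after the values of Cyp1b1 had been seen. Cyp1a1 was at 7.32, 5.63 and 7.34 normalized counts with ACs and 39.4, 53.1 and 42.2 with E. coli + ACs (2.56 ± 0.45, adjusted p = 0.000611, limma). Tiparp was at 437, 458 and 469 with ACs against 1034, 1112 and 821 with E. coli (1.11 ± 0.14), and the receptor gene Ahr itself was at 132, 152 and 145 with ACs against 315, 284 and 274 with E. coli (1.02 ± 0.14). All 3 rose without overlap, while the repressor gene Ahrr did not pass (32.5, 40.4 and 49.8 with ACs against 56.1, 76.8 and 65.1 with E. coli, 0.69). With IFN-γ present, Cyp1b1 still rose past the threshold (3.06 ± 0.55, adjusted p = 0.000592, limma), while Ahr (-0.09) and Tiparp (0.35) did not pass.

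Haemoglobin transcripts, which eosinophils are not known to make in quantity, were also singled out after their values were seen. Hbb-bs was at 1055, 1476 and 1046 with ACs and 3096, 2183 and 2440.1 with E. coli + ACs (1.11 ± 0.24, adjusted p = 0.00407, limma), and Hbb-bt rose by 1.35. With IFN-γ they moved the other way, by -1.01 and -1.15. These genes are near-identical copies, and as the study's methods count uniquely mapped reads alone, their values are uncertain. The endothelial anticoagulant receptor pair also parted: Procr rose, and thrombomodulin, Thbd, fell from 207, 199.9 and 165 to 77.9, 74.4 and 58.1 (-1.43 ± 0.23, adjusted p = 0.000287, limma). Npy, the gene of neuropeptide Y, rose from 90.3, 108 and 51.4 to 376, 263 and 342 (2.01 ± 0.32), beside its risen neighbours Mpp6 and Gsdme on chromosome 6 (49822710 to 50263862), which are among 10 runs of at least 3 adjacent tested genes that passed in 1 direction.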
